A study of Mus musculus with 2 samples.

Results

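The 6 genes of dead-cell recognition, Gas6, Pros1, Mfge8, Axl, Mertk and Tyro3, were followed through the cell classes of the mouse cornea and limbus after an alkali burn. They were taken by symbol as the bridging ligands and receptors of the TAM system, and are 6 of the 32285 genes in the deposited matrices. The injured library came from wild type cornea and limbus injured with sodium hydroxide (NaOH), and it was set against a library of uninjured wild type cornea and limbus. The limbus is the rim of tissue around the cornea that holds the epithelial stem cells. Each group is 1 droplet-based 10x Genomics library of dissociated cells, and the sources used here do not give the strain, the age, the time after injury or the number of mice. Most of the conjunctiva was dissected away, per the labels' protocols. The study compares burned with intact tissue cell by cell.

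Gas6 and protein S, the product of Pros1, are soluble proteins that bind phosphatidylserine on the surface of dying cells through a domain modified with the help of vitamin K. With its other end Gas6 activates the receptor tyrosine kinases Axl, Mertk and Tyro3, and protein S activates Mertk and Tyro3. Through these receptors phagocytes take up dead cells and dampen cytokine signalling. Mfge8, also called lactadherin, bridges phosphatidylserine to integrins that contain the alpha v subunit instead of to the TAM receptors.

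The NaOH library gave 8346 analysed cells and the uninjured library 6775, with medians of 10599 UMIs per NaOH cell and 10162 UMIs per uninjured cell (a UMI, unique molecular identifier, stands for 1 captured transcript). Cells were grouped into classes by listed markers, and each class name (epithelial, stromal and so on) means cells like that type by these markers. Every class described had at least 3 of its listed markers at 50 CPM or more, with Ptgds at 0 in stromal cells of both libraries; CPM is a gene's UMIs over all UMIs of its class, on the usual CPM scale. The NaOH library held 1022 neutrophils and 203 macrophage or monocyte-like cells, against 2 neutrophils and 7 macrophage or monocyte-like cells in the uninjured library, so the myeloid classes could not be compared. The libraries shared 15 cell barcodes. With 1 library per group no test was possible: intervals are exact 95% intervals that cover counting error only, and they hold no variation between mice. A gene with 20 or more UMIs over both libraries counted as higher or lower in a class where its level differed by 2-fold or more and the interval of the ratio left out 1. Levels are compared within a gene across classes, not between genes.

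Over the whole libraries, all 3 ligands were higher after NaOH. Gas6 stood at 108 CPM in the NaOH library and 72.7 CPM in the uninjured library. Pros1 stood at 28.9 CPM in the NaOH library and 2.69 CPM in the uninjured library, and Mfge8 at 84.1 CPM in the NaOH library and 42.4 CPM in the uninjured library. In these totals a change of cell makeup and a change of level cannot be told apart, so the cells that held each transcript were counted. Stromal cells, the fibroblast-type cells of the cornea and limbus that include the keratocytes, held 70.3% of all Gas6 UMIs in the NaOH library and 2.24% in the uninjured library. Epithelial cells held 26.5% of Gas6 UMIs in the NaOH library and 95.9% in the uninjured library. Of the UMIs of all genes, stromal cells held 10.5% in the NaOH library and 3.32% in the uninjured library, and epithelial cells held 83.4% in the NaOH library and 95.1% in the uninjured library. The stromal share of Gas6 thus lay far above the stromal share of all UMIs in the NaOH library, while in the uninjured library the epithelial share of Gas6 was close to the epithelial share of all UMIs. Of the receptors, Axl stood at 19.1 CPM in the NaOH library and 8.58 CPM in the uninjured library, and Tyro3 at 7.63 CPM in the NaOH library and 8.08 CPM in the uninjured library. For Pros1 the stroma was the main holder in both, with 76.2% of UMIs in the NaOH library and 60.8% in the uninjured library.

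**Figure D1:**
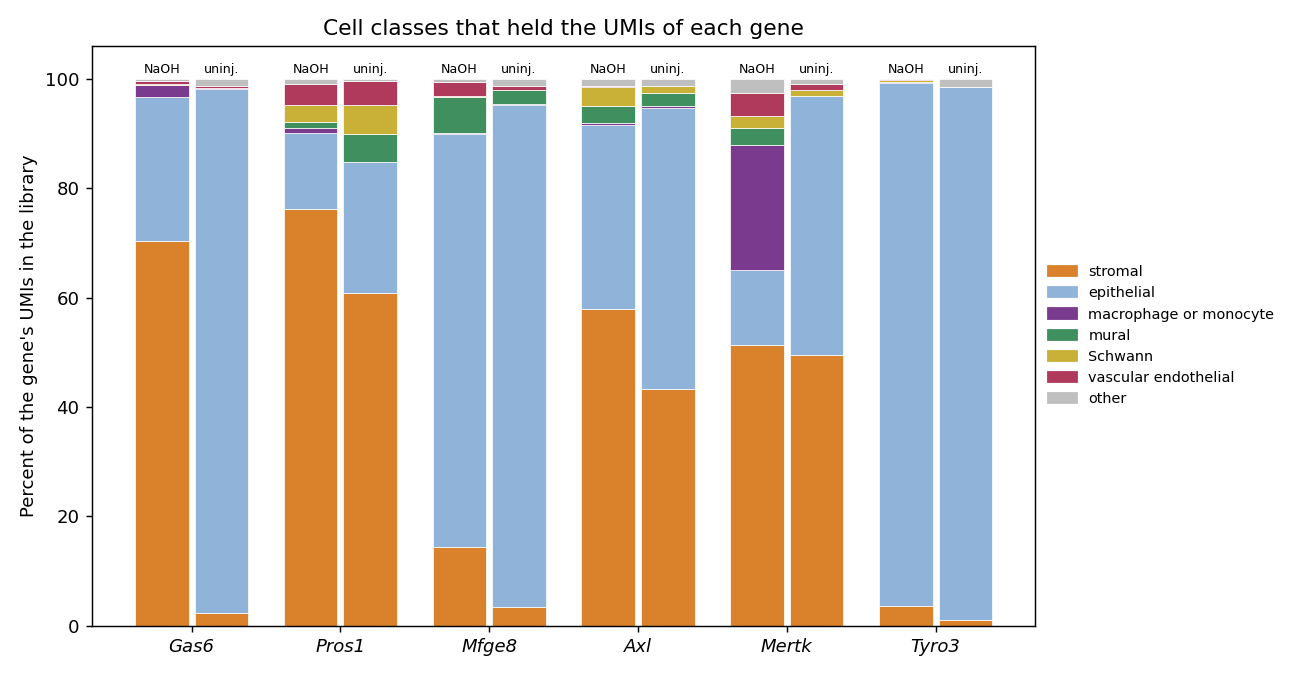
Percent of the UMIs of each gene (y axis) held by each cell class (colours) in the NaOH library (left bar of each pair) and the uninjured library (right bar). Stromal cells held 70.3% of Gas6 UMIs in the NaOH library and 2.24% in the uninjured library, while epithelial cells held 95.5% of Tyro3 UMIs in the NaOH library and 97.5% in the uninjured library.

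Positions are those of GENCODE M21 on the mouse build GRCm38. Gas6 (ENSMUSG00000031451) occupies chr8:13465374-13494490 on the minus strand and overlaps Tmem255b, a protein-coding gene on the opposite strand. Pros1 (ENSMUSG00000022912) occupies chr16:62854307-62929346 on the plus strand. Mfge8 (ENSMUSG00000030605) occupies chr7:79133768-79149060 on the minus strand. Axl lies at chr7:25757273-25788705 on the minus strand, Mertk at chr2:128698956-128802894 on the plus strand and Tyro3 at chr2:119797733-119818104 on the plus strand. Mertk overlaps the antisense gene Gm14011 and the snoRNA gene Gm23172. The sources used here do not give the strand setting of the counting, and how it handled reads in overlapping genes was not examined.

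The promoters of the 3 ligand genes are shown because these genes were higher together in stromal cells after NaOH. Each window runs from 250 bases before to 50 bases after the RefSeq start (GRCm38.p6), at chr8:13494486-13494785 for Gas6, chr16:62854057-62854356 for Pros1 and chr7:79149011-79149310 for Mfge8. Sequences read along the strand of the gene, 5′ to 3′. Capitals mark GC boxes (GGGCGG on either strand) and, in Pros1, the single STAT motif (TTCNNNGAA).
Gas6: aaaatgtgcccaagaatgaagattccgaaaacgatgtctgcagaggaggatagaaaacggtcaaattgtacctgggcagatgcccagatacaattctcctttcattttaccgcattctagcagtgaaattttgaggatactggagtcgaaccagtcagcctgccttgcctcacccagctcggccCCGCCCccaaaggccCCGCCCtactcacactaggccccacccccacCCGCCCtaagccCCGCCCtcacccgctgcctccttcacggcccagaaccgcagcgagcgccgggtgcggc
Pros1: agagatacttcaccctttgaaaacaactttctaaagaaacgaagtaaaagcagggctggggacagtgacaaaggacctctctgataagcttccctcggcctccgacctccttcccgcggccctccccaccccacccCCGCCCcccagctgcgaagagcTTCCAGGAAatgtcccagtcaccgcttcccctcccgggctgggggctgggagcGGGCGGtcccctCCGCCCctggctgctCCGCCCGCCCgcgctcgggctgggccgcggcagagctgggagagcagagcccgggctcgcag
Mfge8: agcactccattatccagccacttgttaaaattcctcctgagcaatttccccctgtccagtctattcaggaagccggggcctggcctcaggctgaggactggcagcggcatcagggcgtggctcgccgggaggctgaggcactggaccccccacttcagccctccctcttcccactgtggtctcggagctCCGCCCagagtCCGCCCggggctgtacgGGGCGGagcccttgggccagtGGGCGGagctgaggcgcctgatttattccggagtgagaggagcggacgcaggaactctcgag
The windows hold 4 GC boxes in Gas6, 5 in Pros1 and 4 in Mfge8. The windows of Axl, Mertk and Tyro3 hold 2, 4 and 6. Of 32851 promoter windows of this length, 35.7% hold a GC box and 8.30% the STAT motif. None of the 6 windows holds the AP-1 motif (TGANTCA, in 7.81% of all windows) or the hypoxia motif (ACGTG, in 19.6%), searched on both strands. These are matches of letters only.

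Gas6 was the ligand that differed most in the stroma. Stromal cells held 7293 Gas6 UMIs in 801 NaOH cells, 723 CPM (706 to 739), against 127 UMIs in 459 uninjured cells, 49.1 CPM (40.9 to 58.4). The ratio was 14.7 (12.4 to 17.7). Among 11959 genes tested in stromal cells, 1.10% had a ratio as far from 1. A NaOH stromal cell held a median of 6 Gas6 UMIs and at most 54, and an uninjured stromal cell a median of 0 and at most 8. At least 1 Gas6 UMI was present in 78.5% of NaOH stromal cells and 15.3% of uninjured stromal cells. The median depth was 11998 UMIs in NaOH stromal cells and 5735 UMIs in uninjured stromal cells. After thinning every cell to 1000 UMIs the shares were 42.4% in NaOH stromal cells and 5.99% in uninjured stromal cells, so the difference in Gas6 was also present at equal depth. In neutrophils, taken as a class with little Gas6 of its own, 1.66% of NaOH cells held a Gas6 UMI at a median depth of 853 UMIs.

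Pros1 and Mfge8 were also higher in NaOH stroma. Pros1 reached 210 CPM (201 to 219; 2121 UMIs) in NaOH stromal cells and 49.1 CPM (40.9 to 58.4; 127 UMIs) in uninjured stromal cells, a ratio of 4.28 (3.58 to 5.16). Mfge8 reached 116 CPM (110 to 123; 1173 UMIs) in NaOH stromal cells and 43.7 CPM (36.0 to 52.5; 113 UMIs) in uninjured stromal cells, a ratio of 2.66 (2.19 to 3.26). All 3 ligands, and no receptor, were thus at least 2-fold higher in NaOH stroma. Among all genes tested in stromal cells 9.7% were higher and 9.38% lower by the same rule, against 3 of 6 higher and 0 of 6 lower here. Markers of other cells also differed. The 8 epithelial markers summed to 899 CPM in NaOH stromal cells and 5348 CPM in uninjured stromal cells. The 8 markers of mural cells, the class highest in Mfge8, summed to 540 CPM in NaOH stromal cells and 190 CPM in uninjured stromal cells, with Des at 0 in the uninjured cells. The 9 neutrophil markers summed to 140 CPM in NaOH stromal cells, with Ly6g at 0, and to 5.03 CPM in uninjured stromal cells, with Retnlg, Csf3r, Ly6g and Hdc at 0. The part of these markers in the ratios was not tested. The 10 macrophage or monocyte markers summed to 49.9 CPM in NaOH stromal cells and 40.6 CPM in uninjured stromal cells, with Fcgr1 at 0 in both and Adgre1 at 0 in the uninjured cells.

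**Figure D2:**
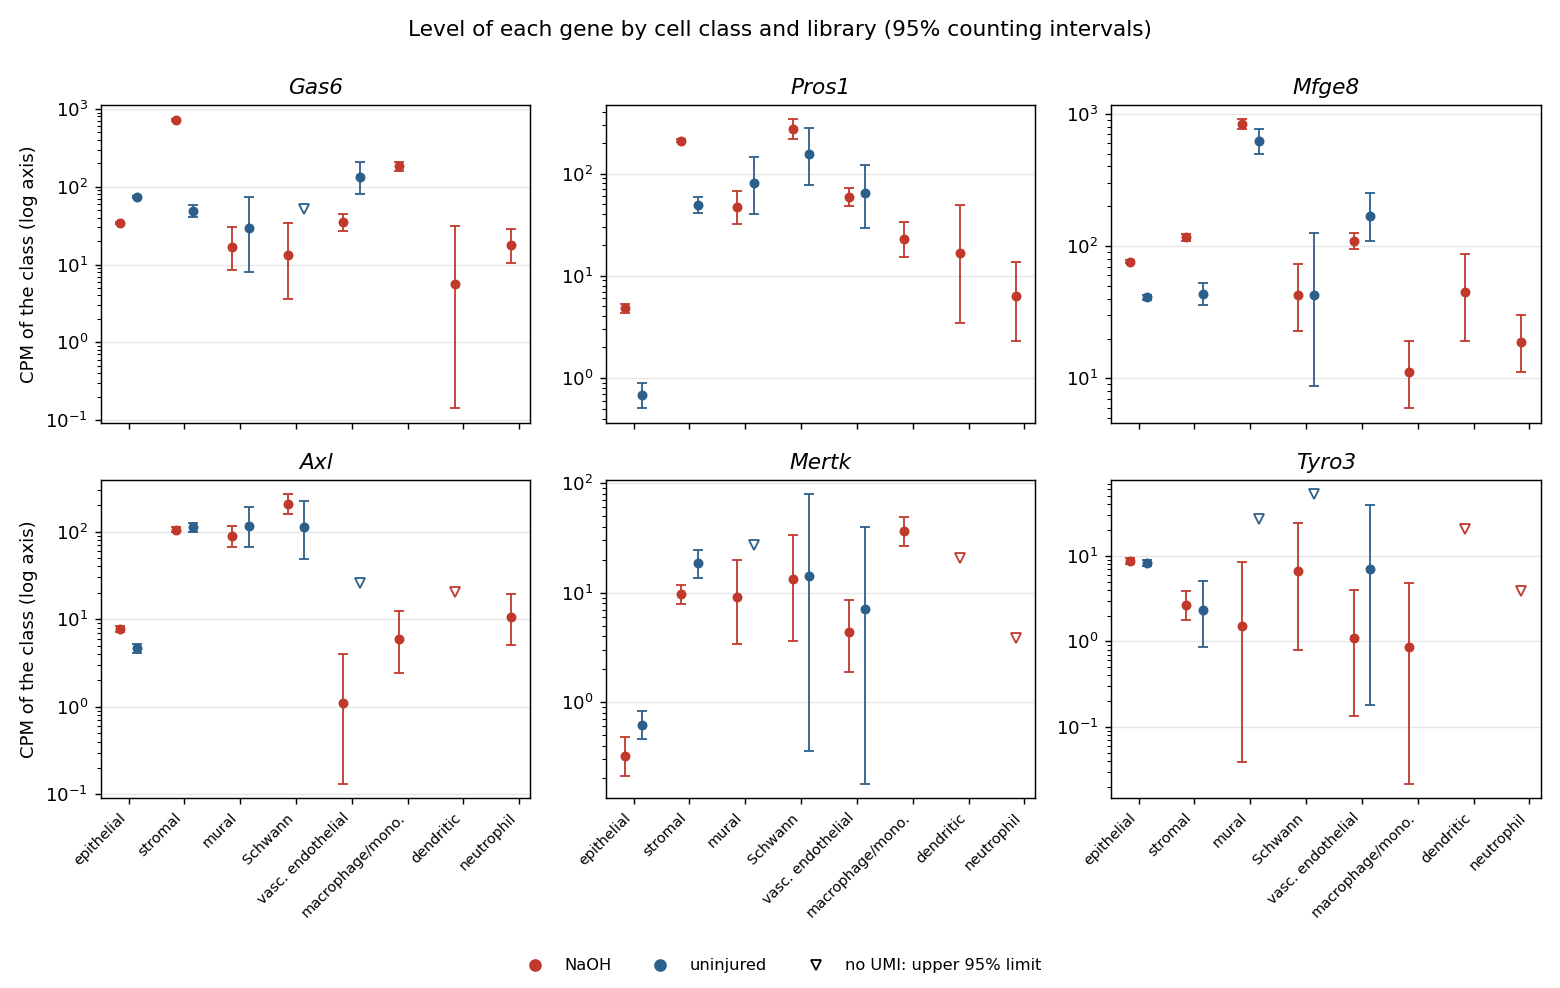
CPM (y axis, log scale) of each gene in each class of at least 20 cells, NaOH (red, left) and uninjured (blue, right), with exact 95% counting intervals; an open triangle is the upper limit where no UMI was seen. Gas6 stood at 723 CPM in NaOH stromal cells against 49.1 CPM in uninjured stromal cells, while Axl stood at 105 CPM against 112 CPM.

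The stromal cells of the libraries fell almost wholly into different subgroups. Re-clustering of the stromal cells alone gave 8 subgroups, of which a single one held at least 20 cells of each library. A higher level in a given kind of stromal cell and a change in the kinds of cell therefore cannot be told apart for the class as a whole. The subgroups differed widely in Gas6. The 259 NaOH cells of subgroup 3, led by Cxcl14 and Col3a1, held 1418 CPM (1371 to 1466). The 338 NaOH cells of subgroup 2, led by Saa3 and Chil1, held 762 CPM (736 to 788). The 135 NaOH cells of subgroup 4, led by Fbln2, Timp1 and Cthrc1, held 36.0 CPM (28.9 to 44.3). Subgroup 4 thus lay far below the other NaOH subgroups. It was deep, with a median of 18173 UMIs. The 26 NaOH cells of subgroup 7 (Cxcl14, Ccn5) held 495 CPM (438 to 558).

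In uninjured stroma the same gene was concentrated in small subgroups. The 351 uninjured cells of subgroup 1, led by the keratocyte gene Kera and by Angptl7, held 14.3 CPM of Gas6 (9.74 to 20.3). The 81 uninjured cells of subgroup 5 (Coch, Stc1) held 188 CPM (145 to 241). Subgroup 6, led by Igfbp6 and Sfrp2, was the shared one, with 25 NaOH and 22 uninjured cells. There Gas6 stood at 560 CPM (430 to 716) in NaOH cells and 411 CPM (277 to 587) in uninjured cells, a ratio of 1.36 (0.868 to 2.18). The interval of the single within-subgroup comparison includes 1 and leaves out the 14.7 of the whole class.

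Pros1 and Mfge8 followed other orders among the subgroups. Pros1 stood at 274 CPM in NaOH subgroup 2, 233 CPM in NaOH subgroup 3 and 103 CPM in NaOH subgroup 4, against 119 CPM in uninjured subgroup 5 and 39.3 CPM in uninjured subgroup 1. NaOH subgroup 4, low in Gas6, was thus not low in Pros1 to the same degree. In subgroup 6 Pros1 had 1 UMI in NaOH cells and 2 UMIs in uninjured cells, too few to compare. Mfge8 stood at 158 CPM (143 to 175) in NaOH subgroup 3, and at 32.4 CPM (25.2 to 40.9) in uninjured subgroup 1 and 111 CPM (77.8 to 152) in uninjured subgroup 5. In subgroup 6 Mfge8 stood at 195 CPM (22 UMIs) in NaOH cells and 82.2 CPM (6 UMIs) in uninjured cells, a ratio of 2.38 (0.935 to 7.17) with an interval that includes 1.

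**Figure D3:**
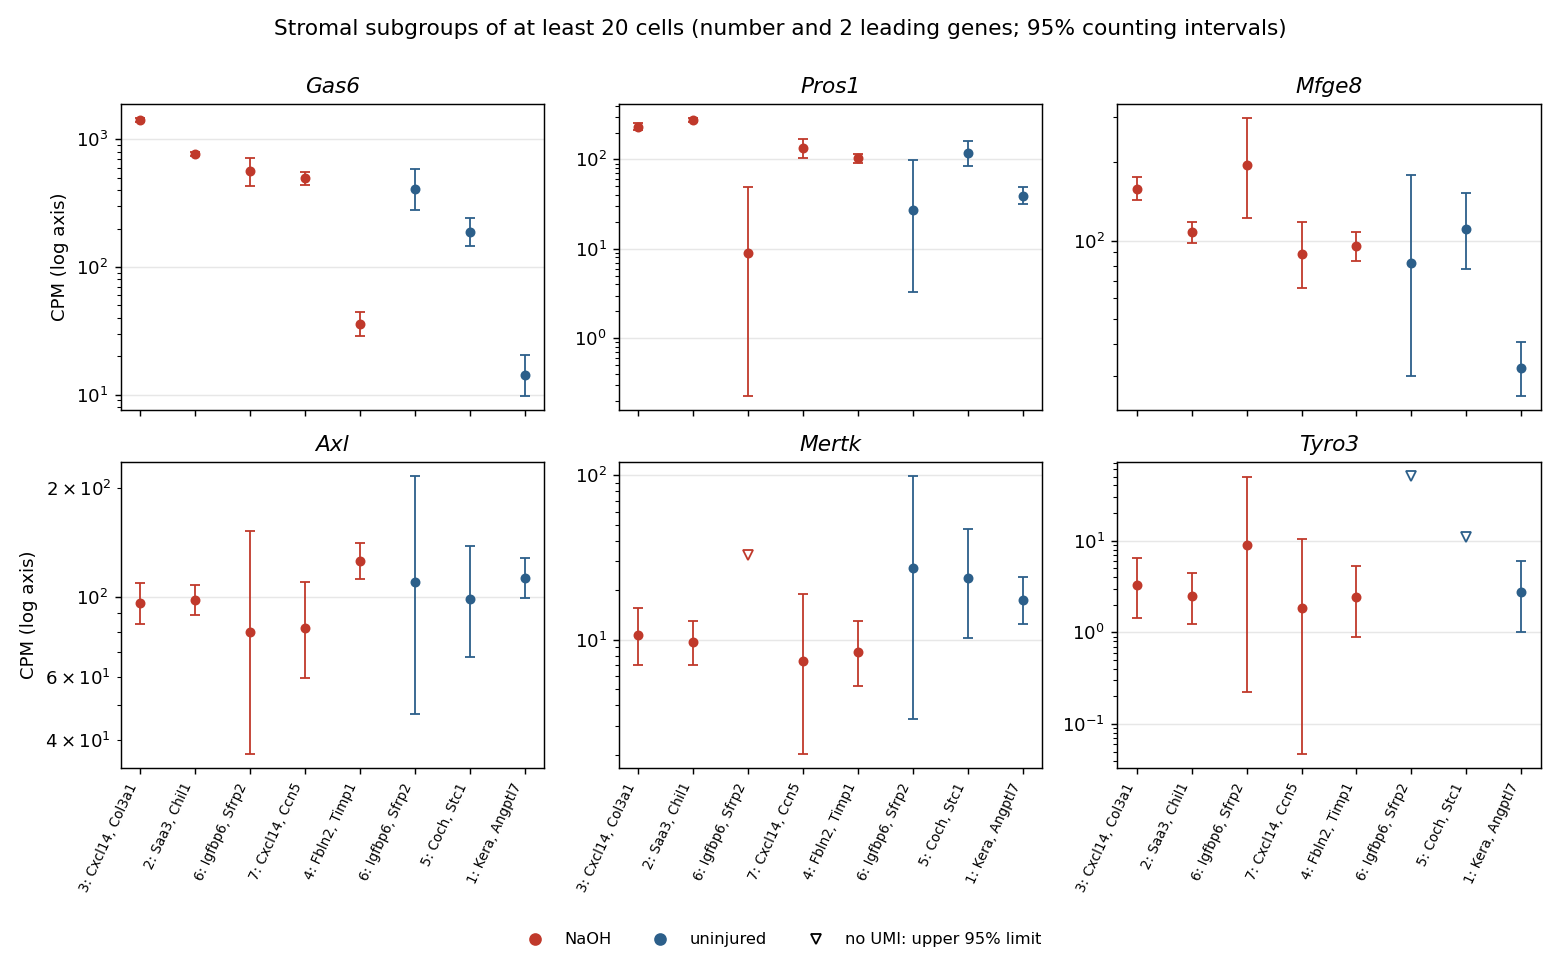
CPM (y axis, log scale) of each gene in the stromal subgroups of at least 20 cells, NaOH (red) left of uninjured (blue), each set by falling Gas6, with exact 95% counting intervals; open triangles are upper limits where no UMI was seen. Gas6 ran between 36.0 and 1418 CPM among NaOH subgroups, and Axl between 80.0 and 126 CPM.

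Over the epithelial class as a whole Gas6 was lower after NaOH. Epithelial cells held 2748 Gas6 UMIs in 5772 NaOH cells, 34.2 CPM (32.9 to 35.5), against 5429 UMIs in 5591 uninjured cells, 73.4 CPM (71.4 to 75.4), a ratio of 0.466 (0.445 to 0.488). The class pools different kinds of epithelial cell. By the listed markers the NaOH cells lay mainly in clusters named limbal-like (0, 2 and 11) and conjunctival or goblet-like (7 and 9). The uninjured cells lay mainly in clusters named only epithelial (1, 3, 6, 8, 12, 15 and 19). A change of kind and a change of level therefore cannot be told apart for the epithelial ratios. The limbal-like name is weak, since all 4 limbal markers also reached 50 CPM in NaOH stromal and mural cells. Gpha2 was among the leading genes of cluster 0. Clusters 2 (Wfdc18, Inhba) and 11 (histone genes, Top2a) had 0 epithelial, limbal or conjunctival markers among theirs. The NaOH epithelial clusters of at least 20 cells lay between 21.2 and 44.8 CPM of Gas6. The uninjured ones lay between 53.2 and 85.5 CPM, except cluster 19 (Lce3a, Psca; 80 cells) at 4.97 CPM. The intervals of NaOH cluster 0 (42.4 to 47.2 CPM) and uninjured cluster 9 (44.4 to 82.6 CPM) overlap. How many of all genes separate the clusters of the libraries in this way was not counted. In cluster 9 (Serpinb3a, Sptssb), conjunctival or goblet-like by its markers and the only cluster of the class with at least 20 cells of each library, Gas6 stood at 33.2 CPM in 584 NaOH cells and 61.3 CPM in 45 uninjured cells, a ratio of 0.542 (0.392 to 0.766). Mfge8 (0.582), Tyro3 (0.538) and Axl (0.600, interval 0.211 to 2.35) had similar ratios in that cluster. The ratios of all genes in cluster 9 were not examined. A shift particular to these genes and a shift common to many genes cannot be told apart there.

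Mfge8 was higher in NaOH epithelium, at 76.0 CPM (74.1 to 77.9) in NaOH cells and 40.9 CPM (39.5 to 42.4) in uninjured cells, but its ratio of 1.86 (1.78 to 1.94) stayed under 2. It was uneven among clusters. NaOH cluster 2 (Wfdc18, Inhba; 1060 cells) held 144 CPM and uninjured cluster 12 (Apoe, Tppp3; 524 cells) held 103 CPM. In the shared conjunctival or goblet-like cluster 9 the direction was opposite to that of the class, with 49.7 CPM in NaOH cells and 85.5 CPM in uninjured cells, a ratio of 0.582 (0.443 to 0.776). The class ratio of Mfge8 therefore did not hold within that cluster, the only one where it could be examined. No cluster named limbal-like allowed the comparison.

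Pros1 was scarce in epithelium but higher after NaOH, at 4.79 CPM (385 UMIs) in NaOH cells and 0.676 CPM (50 UMIs) in uninjured cells, a ratio of 7.09 (5.27 to 9.72). In the shared cluster 9 it had 27 UMIs in 584 NaOH cells and 0 in 45 uninjured cells. The interval of that ratio, from 0.565 upward, includes 1. Free RNA from other cells also reaches epithelial droplets, and Pros1 was higher in the NaOH library as a whole. An upper estimate of that free RNA was 1.15 CPM of Pros1 in NaOH epithelial cells and 0.0690 CPM in uninjured epithelial cells. The 8 stromal markers moved with Pros1, summing to 199 CPM in NaOH epithelial cells and 68.4 CPM in uninjured epithelial cells, with Ptgds at 0 in both. Pros1 stayed at least 2-fold higher in epithelium when the free RNA estimate was subtracted. The part of the stromal markers in the Pros1 ratio was not tested beyond that. In epithelial cells 1 of 6 genes was higher and 1 of 6 lower, where 14.2% of all genes tested were higher and 11.3% lower.

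**Figure D4:**
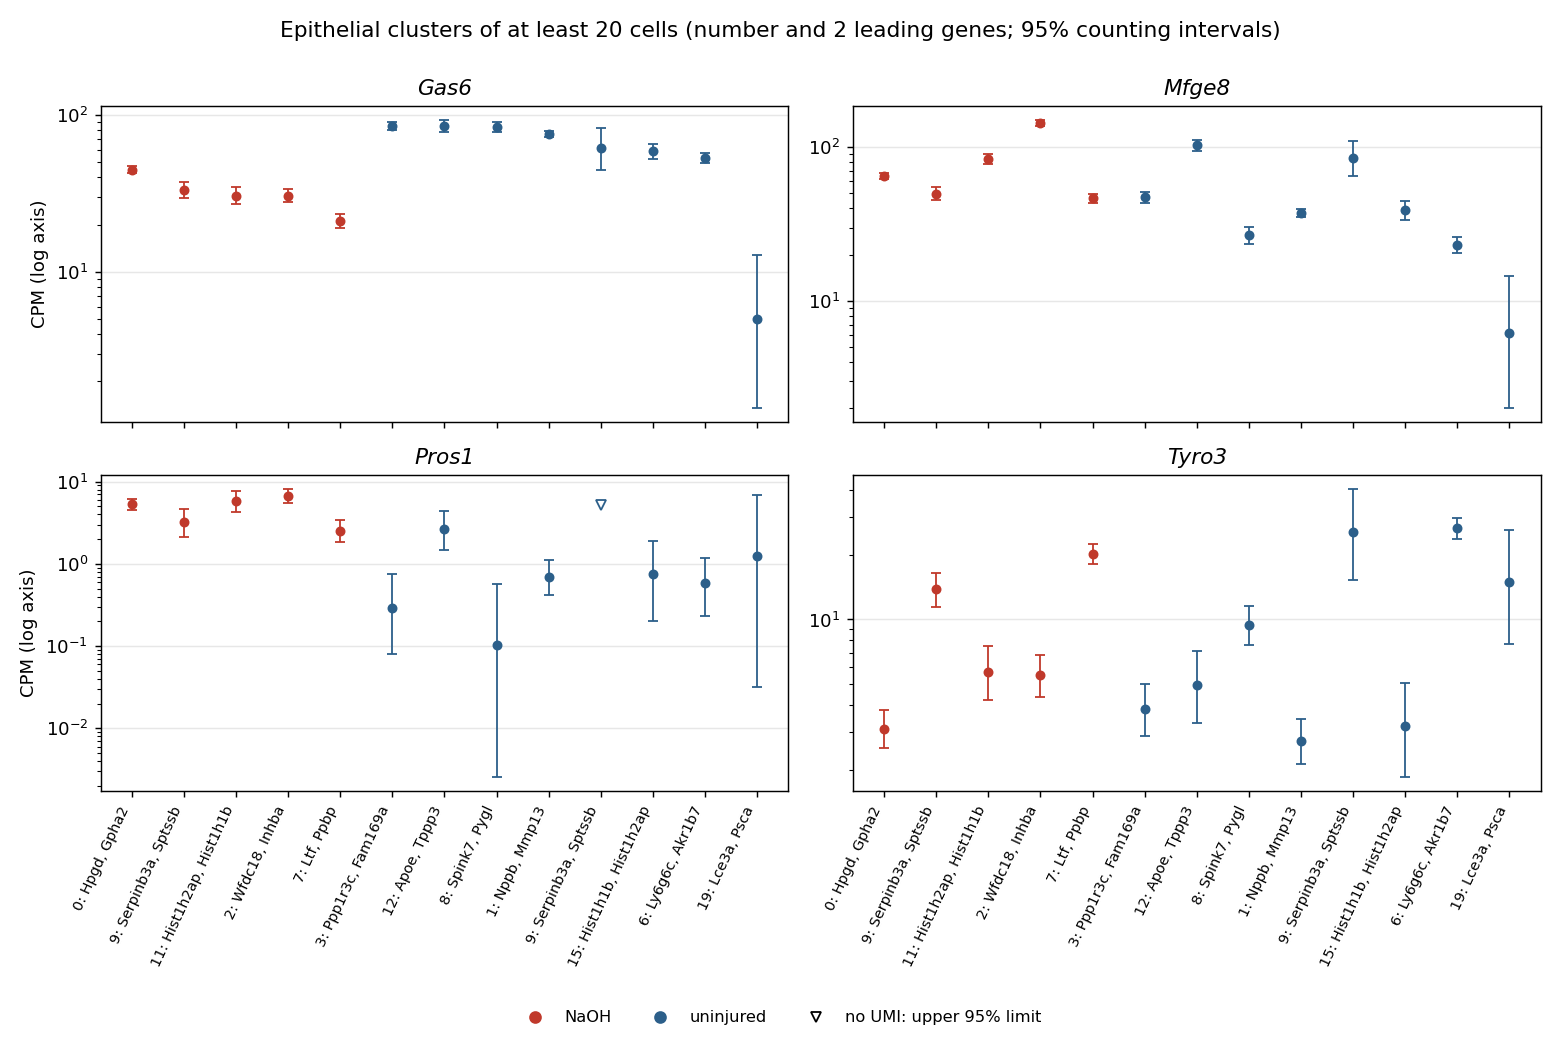
CPM (y axis, log scale) of 4 genes in epithelial clusters of at least 20 cells, NaOH (red) left of uninjured (blue), each set by falling Gas6, with exact 95% counting intervals; the open triangle is an upper limit where no UMI was seen. NaOH clusters lay between 21.2 and 44.8 CPM of Gas6, and uninjured clusters between 53.2 and 85.5 CPM except number 19.

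Blood vessels and their supporting cells carried ligands too. In vascular endothelial cells Gas6 stood at 35.1 CPM (64 UMIs) in 195 NaOH cells and 135 CPM (19 UMIs) in 40 uninjured cells, a ratio of 0.261 (0.154 to 0.461). All 19 uninjured UMIs lay in subgroup 2 (Selp, Fabp4), which held 23 of the 195 NaOH cells and 30 of the 40 uninjured cells, so level and makeup cannot be told apart for the class. The 8 epithelial markers summed to 552 CPM in NaOH endothelial cells and 4158 CPM in uninjured endothelial cells, with 5 of the 8 at 50 CPM or more in the uninjured cells, and their part in the ratio was not tested. The count of lower members fell to 0 when every cell was thinned to 1000 UMIs or weighted alike. Within subgroup 2 Gas6 stood at 109 CPM in NaOH cells and 150 CPM in uninjured cells, a ratio of 0.726 (0.330 to 1.55). Pros1 in vascular endothelial cells was 59.2 CPM in NaOH cells and 63.8 CPM in uninjured cells, a ratio of 0.928 (0.471 to 2.08). Mfge8 there was 110 CPM (201 UMIs) in NaOH cells and 170 CPM (24 UMIs) in uninjured cells, a ratio of 0.648 (0.423 to 1.03). Both intervals include 1. Of the 6 genes only Gas6, Pros1 and Mfge8 had enough UMIs for a call in this class. Among these 0 were higher and 1 lower, where 5.56% of all genes tested in this class were higher and 6.55% lower. The other members had too few UMIs and cannot be read as unchanged.

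Mfge8 had its highest level in mural cells, the pericytes and smooth muscle cells around vessels. It stood at 837 CPM (768 to 910) in 86 NaOH mural cells and 622 CPM (497 to 769) in 60 uninjured mural cells, a ratio of 1.35 (1.07 to 1.71). The mural cells of the libraries lay in different subgroups. Subgroup 1 held 1 NaOH cell and 58 uninjured cells, while subgroups 2, 3 and 4 held 51, 22 and 12 NaOH cells and at most 1 uninjured cell each, so level and makeup cannot be told apart. Mfge8 stood at 836 CPM in NaOH subgroup 2 and 558 CPM in NaOH subgroup 3, against 634 CPM in uninjured subgroup 1. Pros1 in mural cells was 47.4 CPM (31 UMIs) in NaOH cells and 80.4 CPM (11 UMIs) in uninjured cells, a ratio of 0.590 (0.289 to 1.30). Mural cells were 1.03% of NaOH cells and held 6.75% of Mfge8 UMIs there. Of the 6 genes only Pros1, Mfge8 and Axl had enough UMIs for a call in mural cells. Among these 0 were higher and 0 lower, where 9.73% of all genes tested in mural cells were higher and 8.79% lower. Pros1 was high in Schwann cells, the glia of corneal nerves, at 275 CPM (219 to 340) in 94 NaOH cells and 156 CPM (78.0 to 280) in 54 uninjured cells. The ratio was 1.76 (0.933 to 3.66), an interval that includes 1. Schwann subgroup 1 held 57 NaOH and 9 uninjured cells, and subgroup 4 held 1 NaOH and 21 uninjured cells. Level and makeup therefore cannot be told apart for the Schwann ratios. The 8 epithelial markers summed to 711 CPM in NaOH Schwann cells and 6678 CPM in uninjured Schwann cells, with Trp63 at 0 in the uninjured cells. Their part in the ratios was not tested. In Schwann cells only Pros1 and Axl of the 6 genes had enough UMIs for a call. Among these 0 were higher and 0 lower, where 7.89% of all genes tested in Schwann cells were higher and 5.66% lower. Members without a call in mural or Schwann cells cannot be read as unchanged there.

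Macrophage or monocyte-like cells had the second level of Gas6 in the NaOH library, 184 CPM (160 to 210). Their subgroup 1, led by Mrc1 and C1q genes (123 cells), held 261 CPM (225 to 301), and subgroup 2, led by Pf4 and Lyz2 (80 cells), held 60.4 CPM (39.8 to 87.9). These intervals are apart. The 7 uninjured cells of the class held 10 Gas6 UMIs. Pros1 stood at 23.1 CPM (15.2 to 33.6; 27 UMIs) in the NaOH cells of the class.

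Axl, the receptor with the strongest affinity for Gas6, was found in mesenchymal and glial cells of both libraries. It stood at 105 CPM (99.1 to 112) in NaOH stromal cells and 112 CPM (99.2 to 125) in uninjured stromal cells, a ratio of 0.943 (0.827 to 1.08). Its stromal subgroups lay close together, between 80.0 and 126 CPM in NaOH cells and between 98.6 and 113 CPM in uninjured cells. Axl thus varied little among subgroups whose Gas6 levels lay far apart. In mural cells Axl stood at 88.8 CPM in NaOH cells and 117 CPM in uninjured cells, and in Schwann cells at 208 CPM in NaOH cells and 114 CPM in uninjured cells, with intervals of the ratios that include 1. Vascular endothelial cells held 2 Axl UMIs in the NaOH library and 0 in the uninjured library.

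Axl in epithelium was 7.70 CPM in NaOH cells and 4.64 CPM in uninjured cells, a ratio of 1.66 (1.45 to 1.90). Among myeloid cells Axl stood at 5.99 CPM (2.41 to 12.3) in NaOH macrophage or monocyte-like cells. An unnamed NaOH subgroup of 71 cells, led by Cd74 and H2-Aa, held 41.8 CPM (21.6 to 73.1).

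Mertk, the receptor best known for dead-cell uptake by macrophages, had its highest level in NaOH macrophage or monocyte-like cells, at 36.8 CPM (26.6 to 49.6; 43 UMIs). Both named subgroups carried it, at 38.8 CPM in subgroup 1 and 33.6 CPM in subgroup 2. In stromal cells it stood at 9.61 CPM (97 UMIs) in NaOH cells and 18.6 CPM (48 UMIs) in uninjured cells, a ratio of 0.518 (0.363 to 0.748), just short of 2-fold lower. Epithelial cells held 0.323 CPM of Mertk in the NaOH library and 0.622 CPM in the uninjured library, a ratio of 0.520 (0.309 to 0.859). Neutrophils held no Mertk and no Tyro3 UMI in 950688 UMIs, which puts both under 3.88 CPM.

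Most Tyro3 UMIs came from epithelial cells, which held 95.5% of them in the NaOH library and 97.5% in the uninjured library, beside 83.4% of all UMIs in the NaOH library and 95.1% in the uninjured library. Tyro3 stood at 8.73 CPM in NaOH epithelial cells and 8.29 CPM in uninjured epithelial cells, a ratio of 1.05 (0.944 to 1.18). In stromal cells it stood at 2.68 CPM (27 UMIs) in NaOH cells and 2.32 CPM (6 UMIs) in uninjured cells, a ratio of 1.15 (0.467 to 3.42). The intervals of Schwann cells (6.62 CPM, 0.801 to 23.9, in the NaOH library) and of vascular endothelial cells (7.08 CPM, 0.179 to 39.5, in the uninjured library) overlap the epithelial ones and rest on at most 2 UMIs. Tyro3 was uneven within the epithelium. It stood at 20.2 CPM (18.1 to 22.4) in NaOH cluster 7, whose leading genes include the conjunctival keratins Krt19 and Krt4, and at 26.6 CPM (23.7 to 29.6) in uninjured cluster 6 (Ly6g6c, Akr1b7). It stood at 3.10 CPM in NaOH cluster 0 (Hpgd, Gpha2) and 2.71 CPM in uninjured cluster 1 (Nppb, Mmp13). In the shared conjunctival or goblet-like cluster 9 it stood at 13.8 CPM in NaOH cells and 25.7 CPM in uninjured cells, a ratio of 0.538 (0.326 to 0.939).

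**Figure D5:**
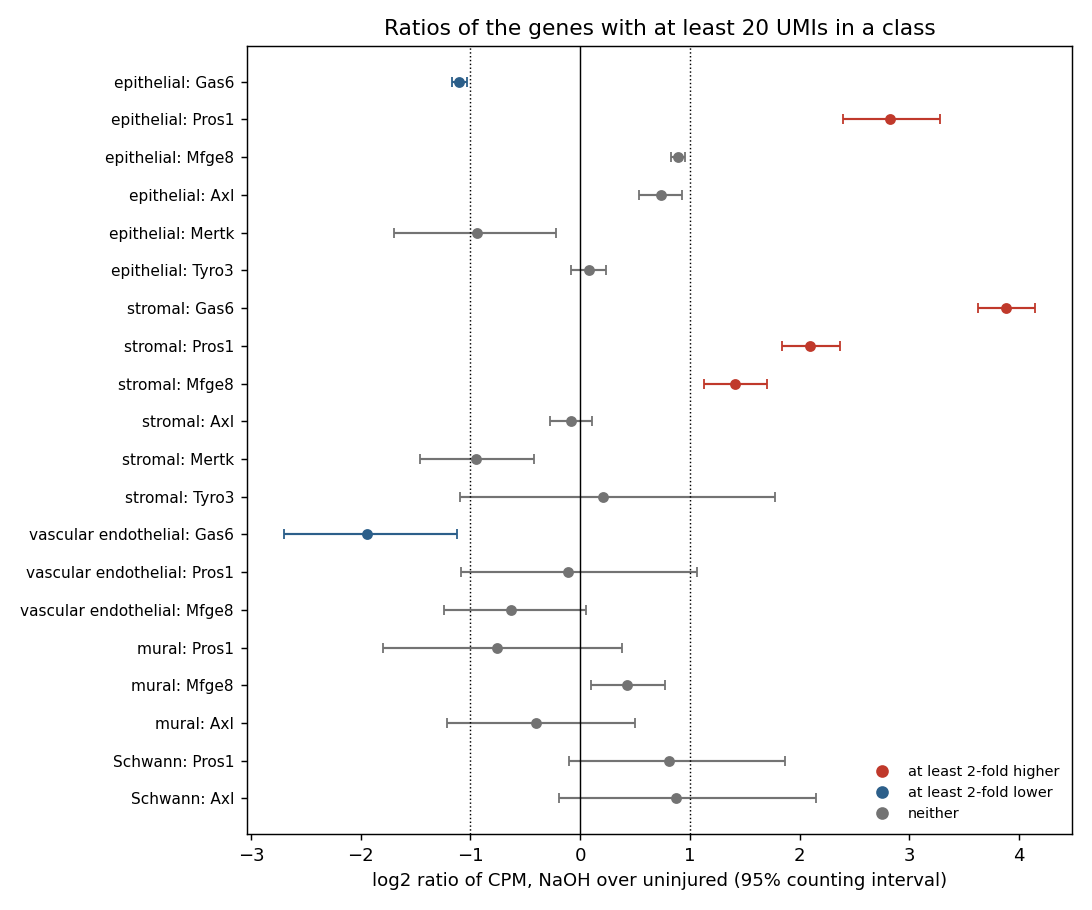
Log2 ratio of CPM, NaOH over uninjured (x axis), with its 95% counting interval, for each gene and class with at least 20 UMIs; dotted lines mark 2-fold, red is at least 2-fold higher and blue at least 2-fold lower. The 3 ligands in stroma and Pros1 in epithelium lie right of the dotted lines, and Gas6 in epithelium and vascular endothelium lies left of them.

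Pairs of a ligand gene and a receptor gene were also counted in the same stromal cells. Alone, Gas6 had a UMI in 78.5%, Pros1 in 79.2% and Axl in 64.5% of NaOH stromal cells, against 15.3%, 22.0% and 45.1% of uninjured stromal cells. Both Gas6 and Axl had a UMI in 399 of 801 NaOH stromal cells (49.8%) and 32 of 459 uninjured stromal cells (6.97%). Pros1 and Axl were found together in 435 NaOH stromal cells (54.3%) and 49 uninjured stromal cells (10.7%). Pros1 and Mertk were found together in 77 NaOH stromal cells (9.61%) and 14 uninjured stromal cells (3.05%). These joint shares move with the single shares and with depth, which was higher in NaOH stromal cells, and are given as a description. Among 203 NaOH macrophage or monocyte-like cells 68 held a Gas6 UMI, 35 a Mertk UMI and 6 an Axl UMI. Both Gas6 and Mertk were found in 14 of these cells, and both Gas6 and Axl in 0. With so few Axl cells the 0 cannot be read as an absence of the pair.

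Lists of genes around the TAM system were counted by the same rule. Of 13 measured phosphatidylserine receptor and bridging genes outside the TAM system, 2 were higher and 2 lower in stromal cells. Among all genes tested in stroma 9.7% were higher and 9.38% lower, so these counts lie near the background. Itgav, the alpha v integrin subunit, stood at 99.2 CPM in NaOH stromal cells and 41.8 CPM in uninjured stromal cells, a ratio of 2.38 (1.95 to 2.92). Thbs1, thrombospondin 1, stood at 791 CPM in NaOH stromal cells and 344 CPM in uninjured stromal cells, a ratio of 2.30 (2.15 to 2.47). The 2 lower genes were C1qb and C1qc, macrophage genes with at most 14 UMIs in either library. The list's median log2 ratio was -0.12, beside 0.00 over all genes tested in stroma. Of 8 find-me and do-not-eat-me genes, 3 were higher in stromal cells and 0 lower, among them Sirpa, the receptor for Cd47, at 60.0 CPM in NaOH cells and 26.3 CPM in uninjured cells, a ratio of 2.28 (1.78 to 2.98). Of 13 engulfment genes 0 were higher and 1 lower in stroma, and of 11 TAM signalling and shedding genes 0 were higher and 0 lower. Of 5 measured vitamin K genes 0 were higher and 1, Nqo1, lower in stroma. Ggcx, the carboxylase that activates Gas6 and protein S, stood at 15.4 CPM in NaOH stromal cells and 16.6 CPM in uninjured stromal cells.

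In epithelium the background was 14.2% of all genes tested higher and 11.3% lower. There 8 of 15 phosphatidylserine receptor and bridging genes were higher and 0 lower, with a median log2 ratio of 1.22 beside 0.03 over all genes tested. These 8 included Stab1 and the 3 C1q genes, which are macrophage genes. Cd300lf stood at 318 CPM in NaOH neutrophils and 0.410 CPM in NaOH epithelial cells, and Thbs1 at 1045 CPM and 38.5 CPM. Stab2 had 1 UMI and Adgrb1 0 in NaOH neutrophils, and both had 0 in NaOH macrophage or monocyte-like cells. The 10 macrophage or monocyte markers summed to 41.1 CPM in NaOH epithelial cells and 10.7 CPM in uninjured epithelial cells, with Adgre1 and Fcgr1 at 0 in the uninjured cells, and their part in the count was not tested. Of 7 phosphatidylserine exposure genes 4 were higher and 0 lower. Of 13 engulfment genes 4 were higher and 1 lower. Of these 4, Elmo1, Rac2 and Vav1 had 26, 47 and 18 UMIs in NaOH epithelial cells and 1, 1 and 2 UMIs in uninjured epithelial cells. Rac2 and Vav1 are leukocyte signalling genes, and in NaOH neutrophils Rac2 stood at 443 CPM and Vav1 at 122 CPM, with 96 UMIs of Elmo1. The 9 neutrophil markers summed to 117 CPM in NaOH epithelial cells and 27.0 CPM in uninjured epithelial cells, with Retnlg and Csf3r at 0 in the uninjured cells. The part of these markers in the counts of both lists, engulfment and phosphatidylserine receptor or bridging genes, was not tested. The other higher gene was Ppard, a lipid-sensing nuclear receptor, with 1610 UMIs in NaOH epithelial cells and 714 UMIs in uninjured epithelial cells, a CPM ratio of 2.08 (1.90 to 2.27). Of 9 find-me and do-not-eat-me genes 2 were higher and 3 lower, the first share near the background. Of 11 TAM signalling and shedding genes 1 was higher and 1 lower: Ifnar2, an interferon receptor subunit that works with the TAM receptors, stood at 50.5 CPM in NaOH cells and 22.8 CPM in uninjured cells, and Socs3, a cytokine signalling inhibitor, was lower in NaOH cells. Both shares of that list lie near the background.

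Across 13 sums of class and library, the genes most like each member were described by Pearson's correlation of log2(CPM + 1) among 6493 genes. The sums share libraries and depth. Axl was most like Efemp2 (0.957), Dennd2a and Meg3, and Mfge8 most like Mprip (0.915), Msx1 and Mylk. Pros1 was most like Eid1 (0.932) and Gas6 most like Hacd4 (0.826). Gas6 and Pros1 were not alike by this measure (-0.07), nor were Gas6 and Axl (-0.14).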

How the data were processed

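The authors deposited raw UMI counts per gene and barcode, which per the file headers come from Cell Ranger 7.0.1 and, per the submitters' processing notes, from GRCm38. The sources used here do not give the annotation release or the chemistry. Barcodes needed 300 genes and 500 UMIs, with mitochondrial UMIs no more than 20%. Scrublet's own threshold marked 0.0333% of NaOH and 0.448% of uninjured cells, taken as a failure, so the highest scores were removed at 0.8% per 1000 barcodes, 657 NaOH and 375 uninjured cells.

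Both libraries were clustered together with scanpy 1.11.5 and leidenalg 0.10.2 (2000 variable genes without the 6 members, 30 components, 20 neighbours, resolution 1). Clusters were named from listed markers, and each non-epithelial class was clustered again with 20 components at resolution 0.5; the naming details and the re-clustering were settled after the data were seen. A cluster stayed unnamed if its top 10 genes held more markers of another class than of its own. A shallow cluster stayed unnamed if its top 10 genes held none of its own markers. The unnamed cells were 106 NaOH and 558 uninjured cells. UMIs were summed per class and library; comparisons were limited to the 5 classes with 10 or more cells on both sides, and counts under 3 were set to 3 in ratios. Intervals are exact Poisson for levels, conditional binomial for ratios and binomial for shares (scipy 1.17.1). Free RNA was estimated from keratin-type genes in other classes and collagen-type genes in epithelium, as an upper limit.

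Members and gene lists were chosen with earlier results of these data known. Members are named in every class with at least 20 UMIs; list genes are named where at least 2-fold apart in epithelial, stromal or macrophage or monocyte-like cells and at 50 CPM in 1 library there, with a few others given as values after they were seen; the 5 genes most like a member were found for members reaching 50 CPM, and those with the highest values are named. Alternatives were other cell filters, doublet thresholds, depths, weights, scalings (TMM from edgeR 4.0.16 and median of ratios), count filters, clusterings and free RNA subtraction.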

Additional observations from a re-analysis of the deposited data

How the results depend on the processing

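Under 11 alternatives the 20 ratios measured gave 220 values, of which 9 changed a call and 0 reversed a called direction. Gas6, Pros1 and Mfge8 in stroma stayed at least 2-fold higher in all 11, with log2 ratios between 3.35 and 4.18, 1.48 and 2.18, and 1.34 and 2.02. Gas6 in epithelium stayed lower (-1.24 to -1.05) and Pros1 in epithelium higher (2.27 to 3.08). The count of genes higher in epithelium was 2 when cells were thinned to 1000 UMIs, where Mfge8 passed 2-fold, against 1. The count lower in epithelium was 2 with the stricter cell filter, with the doublet caller's own threshold and with free RNA subtracted, against 1, and the count lower in stroma was 1 with the caller's threshold, with each cell weighted alike and with free RNA subtracted, against 0; Mertk was the gene that changed in both. The count lower in vascular endothelial cells was 0 when cells were thinned or weighted alike, against 1. TMM scaling shifted all log2 ratios by 0.11 in mural and vascular endothelial cells, and median-of-ratios scaling by 0.10 in Schwann cells. At stromal resolution 1 Gas6 ran between 36.0 and 1412 CPM in NaOH subgroups.

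No paired analysis was possible because each group has 1 library. A single library per group is the main limit: differences between mice, between dissections and between injured and uninjured tissue cannot be told apart. Ratios in vascular endothelial, mural and Schwann cells rest on 40 to 60 uninjured cells.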
